A study of Homo sapiens with 8 samples.

Results

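The splicing factor genes described here are the 127 of the 18388 measured genes whose symbol begins with SRSF, HNRNP, SF3A, SF3B, SNRP, PRPF, U2AF, LSM or RBM (the last 2 followed by a digit) or is SYF2. They were measured by SLAM-Seq in U-2OS Tet-ON cells, a human osteosarcoma-derived line that expresses the tetracycline-regulated transactivator, after 72 h of 50 nM siRNA, either the control (siControl) or against CGGBP1 (siCGGBP1), a protein that binds CGG repeats. During the last 60 min all 6 cultures compared, 3 per group, received 75 µM 4-thiouridine (4sU), and the library names also carry DMSO. Single siControl libraries with 0 and 200 µM 4sU are given as values and entered no comparison. The siRNA against CGGBP1 was a pool, and both groups come from a single cell line. The study counts biological replicates, but whether these were grown on separate days is not given in the sources used here, and the p-values measure only the spread between these libraries.

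Introns are removed by the spliceosome, which assembles on each intron from small nuclear ribonucleoproteins (snRNPs). The U1 snRNP recognizes the 5′ splice site, the U2 snRNP and its associated proteins recognize the branch point and the 3′ splice site, and the U4/U6.U5 tri-snRNP then joins to form the active complex. SR proteins mostly promote the use of exons to which they bind, heterogeneous nuclear ribonucleoproteins (hnRNPs) coat nascent RNA and often repress exons, and many RBM proteins adjust the choice of splice sites. Transcripts of SR and hnRNP genes are themselves alternatively spliced, and many contain ultraconserved exons that direct the mRNA to decay.

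By class, the members were 12 SR, 26 hnRNP, 12 snRNP core (SNRP), 13 LSM, 13 U2-associated (SF3A, SF3B and U2AF), 13 PRPF and 37 RBM genes and SYF2. Of the 127, 115 reached 100 reads in 3 or more of the 6 libraries and were tested, and 12 were not: 1 SR, 4 hnRNP, 1 U2-associated and 6 RBM genes. Of these 12, 8 reached 10 reads in a library. RBM20, a regulator of titin splicing that was singled out after its values were seen, had 6.94, 8.61 and 12.05 normalized reads in the siControl and 70.2, 33.7 and 170.1 in the siCGGBP1 libraries, which do not overlap but lie near or under the limit for testing.

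Because CGGBP1 binds CGG repeats, the promoters of the members were searched for uninterrupted tracts of at least 3 repeats (CGGCGGCGG, or CCGCCGCCG for the other strand) between 250 bases before and 50 bases after the transcript start, in RefSeq sequence of GRCh38.p14. A promoter was found for 110 of the 127 members, and 8 of these genes (7.27%) held such a tract, against 2036 of all 27305 genes with a promoter in the same table (7.46%). That background includes genes that were not tested here. Of the tested genes 78.2% could be matched to a promoter, and of the tested members 87.0%, too few for a valid comparison. Among those matched, 14.7% of the tested genes held a tract, against 8% of the tested members. The 3 members with 4 uninterrupted repeats and SNRPB, which has 3 and the lowest log2 fold change of the 8, are shown here in the direction of transcription, with the tract in capitals.
HNRNPA0: taggggagcggaggtggCGGCGGCGGCGGt
RBM7: agatgggggCGGCGGCGGCGGaagcggatc
LSM4: cgtgtgcagCGGCGGCGGCGGaagtggccg
SNRPB: tttccggtagCGGCGGCGGgaaatcggctg
These stretches lie at chr5:137754314-137754343 (minus strand), chr11:114400670-114400699 (plus strand), chr19:18323045-18323074 (minus strand) and chr20:2470757-2470786 (minus strand), and each tract begins within the 50 bases after the start. LSM5, RBM33, HNRNPUL1 and U2AF2 held tracts of 3 repeats upstream of the start. The median log2 fold change of total RNA was 0.07 over the 8 members with a tract, of which 3 were below 0, and -0.18 over the 92 tested members with a promoter and no tract, of which 66 were below 0. A match describes these letters only and is not evidence of binding.

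Between 10127519 and 14221516 reads were counted per library in the 6 libraries, of which the members took 1.95% to 2.44%. CGGBP1, the siRNA target, fell after knockdown, with 1075 ± 177 normalized reads in siControl against 230.6 ± 124 (SD, n = 3 each; log2 fold change -2.22, adjusted p = 0.0138 in edgeR). Of the marker genes, the mesenchymal and osteosarcoma set summed to between 38854 and 104056 reads per library, with 41477 to 52041 normalized reads in siControl and 62564 to 85530 in siCGGBP1, while leukocyte and endothelial markers summed to at most 8 and 1 reads and the epithelial set to between 46 and 184.5, all from EPCAM. COL1A2 of the mesenchymal and KRT5 of the epithelial set were not among the measured genes and are not part of these sums. Within the mesenchymal set COL1A1 and SPARC, which encode matrix proteins, rose after knockdown (log2 fold change 1.31 and 1.27, adjusted p = 0.00353 and 0.00634 in edgeR). Their part in the results below was not tested. In replicate 3 of both groups the new-to-total RNA ratio, described below, was 0 or missing for 57.4% and 59.8% of tested genes, against 22.5% to 31.9% in the other 4 libraries.

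In total RNA, 1 of the 115 tested members passed the test: HNRNPR fell after CGGBP1 knockdown (edgeR's quasi-likelihood test, adjusted p under 0.05 over the 10138 tested genes). None passed with a higher level, where 1.21% of all tested genes were called lower and 0.572% higher, so the counts of members are near or below the background. No member passed with an absolute log2 fold change above 1, a rule that 0.957% of genes passed lower and 0.454% higher. DESeq2's Wald test called 9 members lower (7.83%, against 3.50% of all tested genes) and 2 higher (1.74%, against 2.60%). At an unadjusted p under 0.05 in edgeR, 18 members were lower (15.7%, against 8.32%) and 8 higher (6.96%, against 8.11%). U2AF1 and its near-identical copy U2AF1L5 are both among the lower members, and with the copy left out, a choice made after seeing the data, the counts were 8 with DESeq2 (7.02%) and 17 at an unadjusted p (14.9%).

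The log2 fold change was below 0 for 78 of the 115 members (67.8%) and above it for 37 (32.2%), where 49.9% of all tested genes were below and 50.1% above 0, and its median was -0.17 over the members and 0.00 over all tested genes. Without replicate 3 of both groups, 79 were below 0. All siCGGBP1 libraries lay below all siControl libraries for 21 members (18.3%, against 12.1% of all tested genes), and above them for 8 (6.96%, against 12.1%). Summed over the members, between 266941 and 293792 normalized reads were counted in the siControl and between 226531 and 258469 in the siCGGBP1 libraries. These are bulk libraries scaled to equal depth, so fewer cells expressing a gene and less RNA per cell cannot be told apart.

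**Figure D1:**
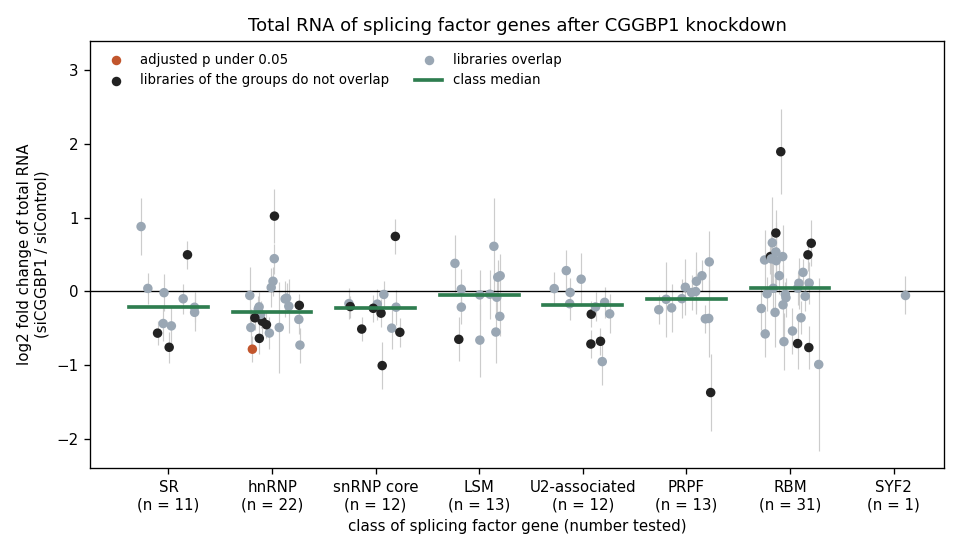
Log2 fold change of total RNA (siCGGBP1 over siControl, vertical axis) of the 115 tested members by class, with standard errors as thin lines and class medians as green bars. HNRNPR, in orange, is the one member past the test, and medians run from -0.28 for the hnRNP to 0.04 for the RBM genes.

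The median log2 fold change of the 11 tested SR genes was -0.22, with 8 below 0 and none past edgeR's test. SRSF1, a general activator that binds exonic enhancers, had 2819, 3294 and 4452 normalized reads in the siControl replicates 1, 2 and 3 and 2304, 1894 and 2044 after knockdown, in the same order of numbers, which is kept throughout. All siCGGBP1 libraries lay below the siControl libraries, with siControl replicate 3 the highest, and the log2 fold change was -0.76 (standard error, SE, 0.21, adjusted p = 0.0935 in edgeR and 0.0118 in DESeq2). SRSF3, the smallest SR protein, which also takes part in mRNA export, had 5603, 5572 and 5977 normalized reads in siControl and 3885, 4061 and 3629 in siCGGBP1. Its groups were tight and did not overlap (5717 ± 225 against 3858 ± 217, SD, n = 3 each), with a log2 fold change of -0.57 (adjusted p = 0.103 in edgeR and 0.00797 in DESeq2).

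SRSF5, another exon-binding SR protein, was the one SR gene with all siCGGBP1 libraries above the siControl libraries (9.09%, against 12.1% of all tested genes). It had 2693, 3664 and 3577 normalized reads in siControl and 4761, 4016 and 5223 in siCGGBP1, a log2 fold change of 0.50 (SE 0.19, adjusted p = 0.221). SRSF8, a paralogue of SRSF2 named after its values were seen, had the highest log2 fold change of the class (0.88), but its libraries overlap, with 1108 normalized reads in siCGGBP1 replicate 3 against 368 in replicate 1. SRSF11, which had the most reads of the class, differed by less than its standard error (log2 fold change 0.04, SE 0.21).

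Of the 22 tested hnRNP genes, 18 had a log2 fold change below 0. In the main fit their median of -0.28 was the lowest of the classes with several members. This rank changed with the libraries used, since without siControl replicate 3 the median was -0.21 for hnRNP and -0.25 for U2-associated genes. HNRNPR (ENSG00000125944, GRCh38 chromosome 1, 23303771 to 23344336, minus strand) binds nascent and messenger RNA. It had 5088, 5155 and 6177 normalized reads in the siControl libraries and 3379, 2771 and 3378 in the siCGGBP1 libraries, where the highest siCGGBP1 library lay well below the lowest siControl library. Its log2 fold change came to -0.79 (SE 0.18, adjusted p = 0.0480 in edgeR and 0.000476 in DESeq2). The edgeR call was lost when any one of the 6 libraries was left out. The adjusted p then lay between 0.0641 and 0.157, while the log2 fold change stayed between -0.84 and -0.69. The call held narrowly with both groups limited to the first 2 libraries (log2 fold change -0.73, adjusted p = 0.0493 in edgeR). That alternative was chosen after seeing the data.

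HNRNPH1, which binds runs of G and regulates nearby splice sites, had 2204, 2165 and 2426 normalized reads in siControl and 1338, 1300.4 and 1727 in siCGGBP1. The groups did not overlap, and the log2 fold change was -0.64 (SE 0.21, adjusted p = 0.141 in edgeR and 0.0415 in DESeq2). HNRNPH3, its shorter relative, named after its values were seen, had 3439.9, 4467 and 5409 against 2123, 2389 and 3515 normalized reads, so siCGGBP1 replicate 3 reached into the siControl range. DESeq2 gave it an adjusted p of 0.0310, and edgeR 0.143. HNRNPC, which covers stretches of U and keeps cryptic exons out of mRNA, had 7044, 5468 and 5692 normalized reads in siControl and 5166, 3902 and 4232 in siCGGBP1, again without overlap (log2 fold change -0.45, adjusted p = 0.242).

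HNRNPA2B1, which packages nascent RNA with HNRNPA1 and HNRNPC, had the most reads of the class, 11982 ± 2075 in the control group and 9642 ± 1974 after knockdown (SD, n = 3 each), with overlapping libraries. HNRNPL, which binds CA repeats, had 1276, 1857 and 2298 and 1438, 1748 and 1868 normalized reads, a difference smaller than the spread between replicates (log2 fold change -0.10, SE 0.24). Its paralogue HNRNPLL regulates the splicing of PTPRC in lymphocytes. It was the one hnRNP gene with all siCGGBP1 libraries above the siControl libraries (4.55%, against 12.1% of all tested genes). It had 431, 281 and 345 normalized reads in siControl and 544, 479 and 1117 in siCGGBP1, the highest value being replicate 3 (log2 fold change 1.02, SE 0.37, adjusted p = 0.187). Without siCGGBP1 replicate 3 the log2 fold change was 0.55. HNRNPA1 and HNRNPA1L2 are near-identical copies, and HNRNPUL2 and HNRNPUL2-BSCL2 overlap on the same strand. How reads were assigned within these pairs was not tested, so the values of these genes are uncertain.

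All 12 snRNP core genes were tested, and 11 had a log2 fold change below 0, with a median of -0.22. Most of them encode the Sm proteins, which form a ring around each spliceosomal small nuclear RNA other than U6. Of the 12, 6 had all siCGGBP1 libraries below the siControl libraries, and 1, SNRPN, above (50% and 8.33%, against 12.1% of all tested genes in each direction). Their summed normalized reads were 41199, 39395 and 42554 in siControl and 34799, 33141 and 33597 in siCGGBP1, 17.5% lower on average and without overlap. The median was -0.22 over the 8 Sm ring genes, of which 7 were below 0, and -0.34 over the 4 genes of proteins specific to U1 or U2, all below 0.

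SNRPA1, which encodes the A′ protein of the U2 snRNP, had 987, 1254 and 1649 normalized reads in siControl and 707, 853 and 377 in siCGGBP1. The libraries did not overlap, and siCGGBP1 replicate 3 was the lowest. The log2 fold change was -1.01 (SE 0.32, adjusted p = 0.138 in edgeR and 0.0446 in DESeq2), and -0.73 without that library. SNRPB, which encodes the Sm proteins B and B′, had 4516, 4640.1 and 4226 normalized reads in siControl and 3225, 3532 and 2348 in siCGGBP1. These libraries also lay apart, with a log2 fold change of -0.56 (SE 0.20, adjusted p = 0.174 in edgeR and 0.0550 in DESeq2).

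SNRPN, an imprinted gene that encodes the closely related protein SmN, stood opposite to SNRPB, with 825, 873 and 1125 normalized reads in siControl and 1406, 1518 and 1805 in siCGGBP1. All siCGGBP1 libraries were higher (log2 fold change 0.74, SE 0.23, adjusted p = 0.129 in edgeR and 0.0486 in DESeq2). SNRPB and SNRPN are similar in their coding sequence, and how reads between them were assigned was not tested. SNRPD2, an Sm ring gene and the one with the most reads in the class, had 8925 ± 449 and 7731 ± 348 normalized reads (SD, n = 3 each), without overlap but with a log2 fold change of only -0.21 (adjusted p = 0.547). SNRPC, which encodes the C protein of the U1 snRNP, had 2886 ± 242 and 2558 ± 578 (SD, n = 3 each) with overlapping libraries.

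Among the 13 LSM genes the median log2 fold change was -0.05 and none passed the test. It turned with single libraries, to -0.27 without siCGGBP1 replicate 3, 0.08 without siCGGBP1 replicate 1 and 0.11 without siCGGBP1 replicate 2. The 8 genes LSM1 to LSM8, whose proteins form the rings that bind the 3′ end of U6 or of mRNAs under decay, had a median of -0.06. LSM12 is not part of these rings. It was the one gene of the class whose groups did not overlap (7.69% lower and 0% higher, against 12.1% each of all tested genes). It had 582, 549 and 625 normalized reads in siControl and 433, 345 and 341 in siCGGBP1 (log2 fold change -0.65, SE 0.30, adjusted p = 0.301). LSM3, with the most reads of the class, and LSM4 had log2 fold changes of -0.21 and -0.08, each smaller than its standard error. LSM14A, a protein of processing bodies, had a log2 fold change of 0.19 (SE 0.23).

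Of the 12 tested U2-associated genes, 9 had a log2 fold change below 0, with a median of -0.19, and none passed edgeR's test. Their summed normalized reads were 28979, 30373 and 30740 in siControl and 24234, 24225 and 25675 in siCGGBP1, 17.7% lower on average and without overlap. U2AF1, the small U2AF subunit that contacts the AG at the 3′ splice site, had 3405, 4451 and 4505 normalized reads in siControl and 2533, 2351 and 2648 in siCGGBP1. Its groups lay well apart, with a log2 fold change of -0.71 (SE 0.19, adjusted p = 0.0820 in edgeR and 0.00437 in DESeq2). U2AF1L5 is a near-identical copy on the same chromosome with nearly the same values in every library (log2 fold change -0.68), so both rest largely on reads that cannot be told apart and count as one observation. With the copy left out the class sum was 25486, 25758 and 26227 in siControl and 21585, 21698 and 22960 in siCGGBP1, 14.5% lower on average and still without overlap, and 8 of 11 genes were below 0 with a median of -0.17.

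The larger partner U2AF2, which binds the polypyrimidine tract, had a log2 fold change of -0.31. SF3B4, a U2 snRNP protein near the branch point that was named after its values were seen, had 1373, 897 and 1983 normalized reads in siControl and 763, 534 and 899 in siCGGBP1. Its libraries overlap only by siCGGBP1 replicate 3 against siControl replicate 2 (log2 fold change -0.95, SE 0.31, adjusted p = 0.148). SF3B1, the subunit that clamps the branch point helix, and SF3B5 had log2 fold changes of 0.04 and -0.02, each smaller than its standard error. The medians over the 3 SF3A and the 6 SF3B genes were -0.15 and -0.11.

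Among the 13 PRPF genes the median log2 fold change was -0.10, with 9 below 0. PRPF4, a protein of the U4/U6 snRNP, had 504, 685 and 433 normalized reads in siControl and 390.0, 165 and 72.3 in siCGGBP1. All siCGGBP1 libraries were below the siControl libraries, but they ranged widely, and the log2 fold change of -1.37 (SE 0.52, adjusted p = 0.207) ran from -2.19 to -0.96 when single libraries were left out. PRPF6, which bridges U5 and U4/U6 in the tri-snRNP, had a log2 fold change of -0.22 (SE 0.32), and PRPF8, the protein at the centre of the spliceosome, of 0.21 (SE 0.21).

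The 31 tested RBM genes were split, with 14 below 0 and 17 above, a median of 0.04, and summed normalized reads that overlap between the groups. RBM41 had the highest log2 fold change of all members, 1.89 (SE 0.58, adjusted p = 0.118 in edgeR and 0.0305 in DESeq2). Its normalized reads were 127, 54.5 and 130.0 in siControl and 272, 198 and 689.6 in siCGGBP1, without overlap, and the log2 fold change was 1.18 without siCGGBP1 replicate 3. RBM5, which regulates the splicing of apoptosis genes, had 755, 410.0 and 415 normalized reads in siControl and 893, 772 and 1066 in siCGGBP1, where the lowest siCGGBP1 library lay just above the highest siControl library (log2 fold change 0.79, adjusted p = 0.223). RBM5 overlaps its neighbour RBM6 on the same strand of chromosome 3 from 50088919 to 50100045 of GRCh38, and RBM6 had a log2 fold change of -0.58, and how shared reads were assigned was not tested.

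RBM14, a coactivator found in paraspeckles, had 770.3, 601 and 840.4 normalized reads in siControl and 334, 460.1 and 509 in siCGGBP1, without overlap (log2 fold change -0.76, adjusted p = 0.219). The overlapping read-through gene RBM14-RBM4 and RBM4 had log2 fold changes of 0.47 and 0.49, and their siCGGBP1 libraries all lay above the siControl libraries. RBM39, a relative of U2AF2 that takes part in 3′ splice site choice, had 3479, 2438 and 2423 and 2397, 1975 and 733 normalized reads. Its groups were separated by a narrow margin and siCGGBP1 replicate 3 was far the lowest, so that the log2 fold change of -0.71 was -0.34 without that library. RBM25, a U1-associated regulator with the most reads of the class, and RBM26 had log2 fold changes of -0.04 and -0.03. RBM3, a cold-inducible protein, had 3195, 3398 and 4466 and 4299, 4445 and 4469 normalized reads, where siControl replicate 3 lay inside the siCGGBP1 range. SYF2, a protein of the activated spliceosome, differed by less than its standard error, with 817 ± 8.27 and 787 ± 151 normalized reads (SD, n = 3 each; log2 fold change -0.05, SE 0.25).

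**Figure D2:**
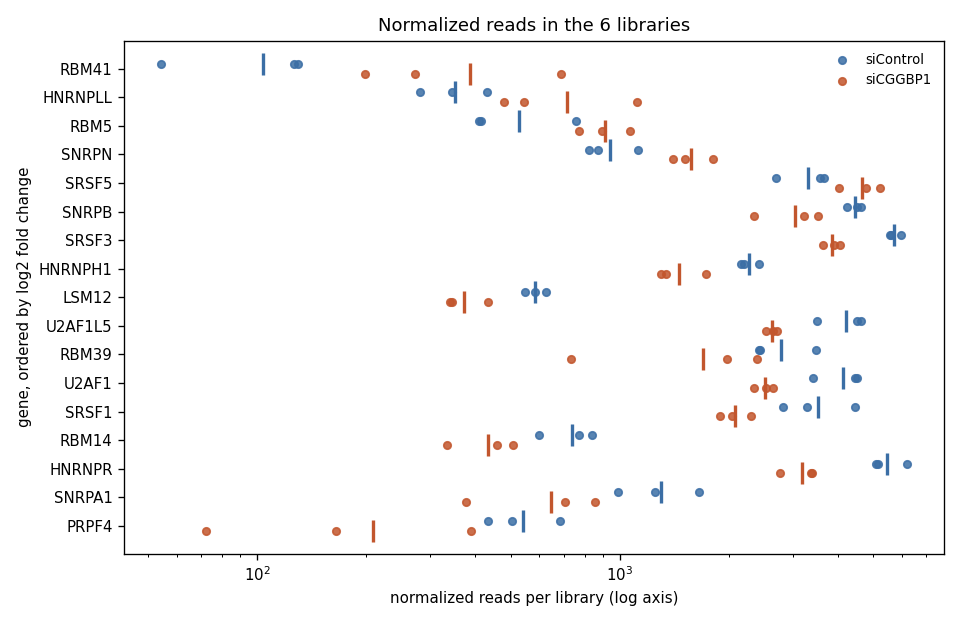
Normalized reads (log axis) in the 3 siControl (blue) and 3 siCGGBP1 (orange) libraries for the members with the highest and lowest log2 fold change of each class among those whose groups do not overlap, with group means as vertical bars. HNRNPR has tight groups, while the siCGGBP1 libraries of PRPF4 and RBM41 are spread widely.

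In SLAM-Seq, 4sU built into new RNA is alkylated and read as T-to-C conversions, and the new-to-total ratio is the share of a gene's RNA made during labelling. Over the tested members, 0.242, 0.262 and 0.203 conversions per 100 covered T were counted in siControl and 0.315, 0.256 and 0.280 in siCGGBP1. Without 4sU the value was 0.0605 (Wilson 95% interval 0.0593 to 0.0617, counting error only), so over the members together the labelled libraries lay clearly above background. The margin differed by class. Without 4sU the snRNP core genes held 0.0808, against 0.156, 0.143 and 0.141 in siControl, and the LSM genes 0.0873, against 0.146, 0.247 and 0.134. The SR genes held 0.0633 without 4sU, against 0.322, 0.406 and 0.273. Ratios of classes with a narrow margin are less certain. No member passed the test of the ratio (limma on arcsine square root values, where 0.00% of all tested genes were called in either direction). At an unadjusted p under 0.05, 5 members were lower and 1 higher, 4.35% and 0.870% of the members against 2.63% and 1.68% of all tested genes. Without the 5 members, named below, whose conversions were highest in the unlabelled library, 3 of 110 were lower (2.73%) and 1 higher (0.909%). The balance depends on the measure, since edgeR on conversions per covered T gave none lower and 3 higher, SRSF6, SRSF8 and SNRPB2 (0% and 2.61%, against 2.28% and 2.63%), with none called.

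The SR genes had, on average over the libraries of each group, a higher median ratio than the other classes with several members, 5.08%, 10.7% and 4.92% in siControl and 10.9%, 11.1% and 6.34% in siCGGBP1. They did not lie highest in any single siControl library, where the PRPF genes had 6.83%, 5.06% and 5.88% and the RBM genes 5.48%, 10.8% and 0.95%. The snRNP core genes had medians of 1.76%, 2.96% and 3.0% in siControl and 0.42%, 1.0% and 2.69% in siCGGBP1, and the hnRNP genes of 2.79%, 4.23% and 3.09% and of 4.47%, 3.54% and 2.66%. For all 3 classes the siControl and siCGGBP1 libraries overlap. The order of SR above hnRNP above snRNP core held for the group means, but the hnRNP and snRNP core medians overlap across the siControl libraries. Over all tested genes the medians were 3.82%, 4.74% and 0.00% in siControl and 3.37%, 2.78% and 0.00% in siCGGBP1, so the members, with 3.37%, 5.26% and 2.37% and with 4.81%, 3.28% and 1.03%, kept a measurable median in replicate 3.

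**Figure D3:**
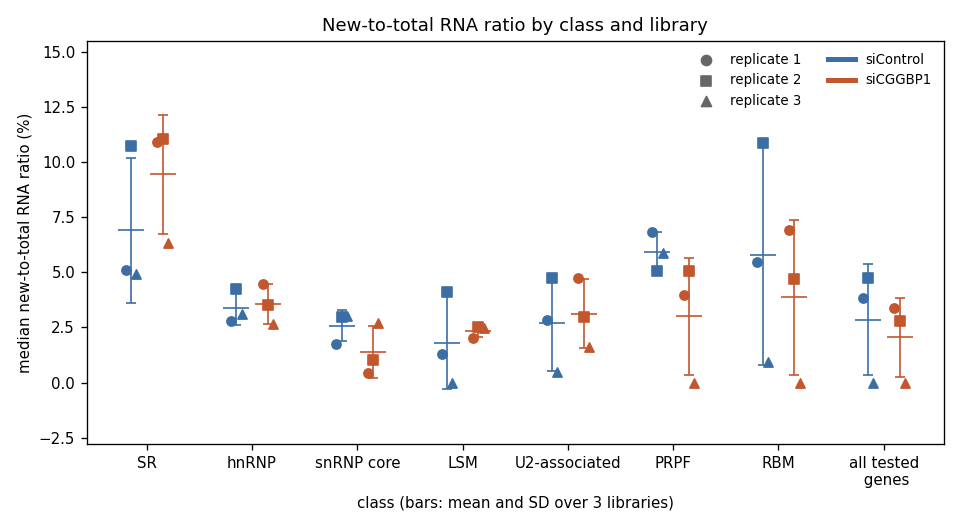
Median new-to-total RNA ratio in percent (vertical axis) over the tested members of each class in each siControl (blue) and siCGGBP1 (orange) library, with mean and SD over 3 libraries. SR genes lie between 4.92% and 11.1%, above the other classes in every siCGGBP1 library but not in siControl, and replicate 3 (triangles) is at 0 for LSM and all tested genes in siControl and for PRPF, RBM and all tested genes in siCGGBP1.

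SRSF6, an SR protein that binds exonic enhancers, was the one member with an unadjusted p under 0.05 and a higher ratio, and is named here after its values were seen. Its ratio was 5.08, 5.09 and 4.92% in siControl and 16.4, 15.1 and 30.9% in siCGGBP1, with the 3 siControl values almost equal and all siCGGBP1 values far above them (limma, adjusted p = 0.884). The conversions per 100 covered T were 0.282, 0.239 and 0.195 in siControl and 1.00, 0.644 and 0.968 in siCGGBP1, against 0.0195 without 4sU, so the counts behind the ratio also lay apart. Its total RNA had a log2 fold change of -0.44 (SE 0.24), and with 200 µM 4sU the siControl ratio was 11.7%. SRSF2, which binds exonic enhancers and helps recruit U1 and U2, had the opposite order, 12.7, 14.8 and 13.1% in siControl and 8.42, 11.1 and 6.34% in siCGGBP1 (adjusted p = 0.884). Its conversions per 100 covered T overlap, with 0.523, 0.554 and 0.474 and 0.386, 0.584 and 0.314, and were 0.161 without 4sU.

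SYF2 had a ratio of 12.9, 3 and 13.9% in siControl and 0, 0 and 0% in siCGGBP1 (adjusted p = 0.793), while its total RNA differed by less than the standard error. The conversions counted were 90, 37 and 109 in siControl and 28, 13 and 1 in siCGGBP1, so they were not absent in siCGGBP1 replicates 1 and 2, where the upper 95% posterior limits were 1.63% and 1.35%. SNRPA1 had 3.02, 2.6 and 6.28% in siControl and 0, 0 and 0% in siCGGBP1 (adjusted p = 0.766), on 71.3, 88 and 152 and 44, 30 and 1 conversions. These counts are not scaled to its lower total RNA. With conversions per covered T, edgeR gave no member lower at an unadjusted p under 0.05. SNRPA1 is the member with lower values in both total RNA and ratio in all 9 pairs of libraries. The share of all tested genes with this combination is not given here.

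SNRPN had a ratio of 1.86, 3.4 and 2% in siControl and 0, 0.29 and 0.41% in siCGGBP1, and PRPF19, a ubiquitin ligase of the spliceosome, of 7.84, 3.47 and 18.4% and 0, 3.07 and 0%. For both genes the library without 4sU held more conversions per 100 covered T than any of the 6 labelled libraries compared, 0.344 and 0.642, so their ratios are not read as new RNA here. The same held for LSM2, LSM3 and RBM41, 5 members in all, named after their values were seen, and RBM41 had 5.61 on 21 conversions without 4sU. Background was also high for SF3B4 (0.281) and SNRPB (0.252). By contrast it was 0.00671 for SRSF10, 0.00854 for HNRNPL and 0.0208 for SYF2.

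All siCGGBP1 ratios lay below the siControl ratios for 10 members (8.70%, against 4.22% of all tested genes) and above for 4 (3.48%, against 2.85%). Among the 110 members left without the 5 whose conversions were highest in the unlabelled library, which takes out SNRPN and PRPF19, 8 lay below (7.27%) and 4 above (3.64%). HNRNPL, which had the highest mean siControl ratio of the hnRNP genes with at least 1000 normalized reads, had 12.9, 12.8 and 15.8% in siControl and 18.2, 16.4 and 20.96% in siCGGBP1, and HNRNPC, with the lowest, had 1.06, 0.90 and 0% and 2.24, 1.62 and 4.79%. Both differ in the same direction in all 9 pairs, but not past the test (limma, adjusted p = 0.884 and 0.884). The other members above were SRSF6 and SNRPB2, which encodes the B″ protein of the U2 snRNP. HNRNPC had lower total RNA with a higher ratio in all 9 pairs, and RBM4 and RBM5 higher total RNA with a lower ratio in all 9. No test of these combinations was run, and their share over all tested genes is not given here, so they are listed only as values. RBM4 and RBM5 each overlap a neighbour on the same strand, and how shared reads were assigned was not tested.

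Within a class the ratio ranged widely between genes. SRSF10 had 13.1, 17.3 and 31.3% and 12.7, 12.3 and 52.4%, with replicate 3 high in both groups, while SRSF1 had 1.53, 4.3 and 0% and 4.09, 2.27 and 0%. Among members with at least 1000 normalized reads, PRPF38B had the highest mean siControl ratio of the PRPF genes, with 42.3, 33.2 and 18.4% and 30.3, 26.7 and 45.7%, and PRPF6 the lowest, with 0, 0 and 0% and 4.43, 0 and 0%. Among the RBM genes RBM26, which takes part in nuclear RNA decay, had 9.29, 15.2 and 24.9% and 15.04, 4.79 and 8.25%, and RBM3 3.92, 2.44 and 0.95% and 5.72, 3.94 and 0.32%. Over the 71 members with at least 1000 normalized reads, the ratios of siControl replicates 1 and 2 had a Spearman correlation of 0.79, and those of the 2 libraries of replicate 3 of 0.20, a description over genes that share libraries and are not independent.

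**Figure D4:**
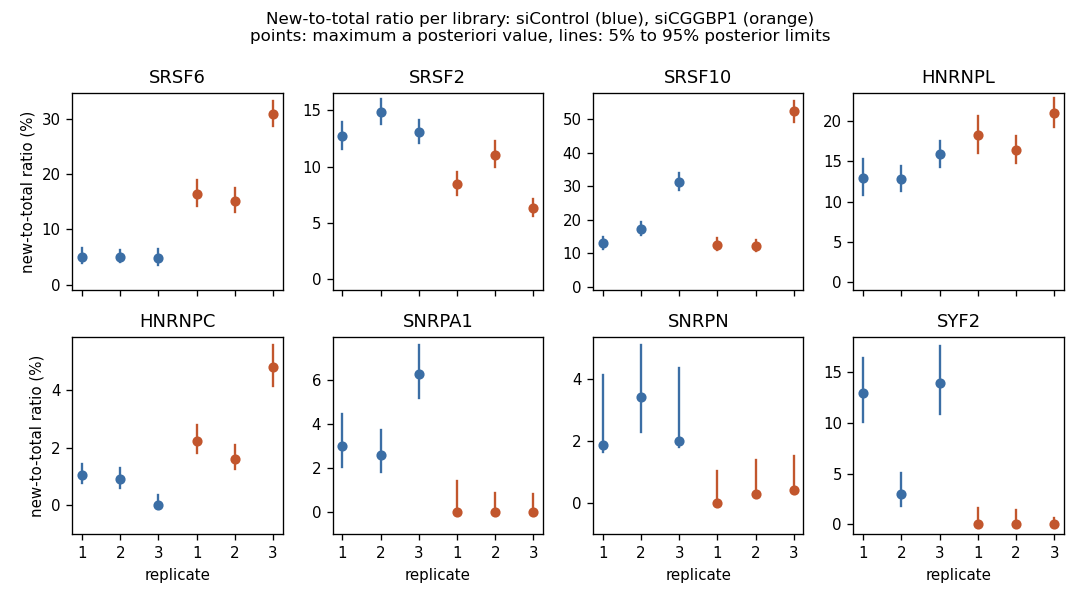
New-to-total ratio in percent in each siControl (blue) and siCGGBP1 (orange) library for 8 members, as maximum a posteriori values with 5% to 95% posterior limits. The 8 were chosen with their values known. Most are members whose ratios do not overlap between the groups, so they do not stand for all members. For SNRPN the unlabelled library held more conversions per covered T than any labelled library compared, so its ratio is not read as new RNA. SRSF6 separates the groups, SYF2 is at 0 in all siCGGBP1 libraries, and SRSF10 is highest in replicate 3 of both groups.

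Newly synthesized RNA, the read count multiplied by the ratio, gave no called member with edgeR, where 0.0197% of all tested genes were called lower and 0.0296% higher. At an unadjusted p under 0.05, SYF2 and SNRPA1 were lower (1.74% of the members, against 1.90% of all tested genes) and none was higher (against 1.24%). DESeq2 called SYF2 lower and none higher, against 0.158% and 0.109% of all tested genes. Between replicates, edgeR estimated a biological coefficient of variation of 1.78 for newly synthesized and 0.399 for total RNA. Fitted to conversion counts instead, no member was called. At an unadjusted p under 0.05, SRSF6, SRSF8, HNRNPA0, RBM7 and RBM15 were higher and HNRNPDL and RBM17 lower (4.35% and 1.74%, against 2.78% and 2.94% of all tested genes).

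Other genes of the splicing pathway were read from lists chosen by function. Of 48 tested genes of the catalytic core and of snRNP proteins outside the symbols above, none was called by edgeR. Their median log2 fold change was -0.23, with 38 below 0 (79.2%, against 49.9% of all tested genes) and 8 at an unadjusted p under 0.05, all lower (16.7%, against 8.32%). USP39, a tri-snRNP protein, CWC27 and PPIL1, both cyclophilins of the spliceosome, were called lower by DESeq2 (6.25%, against 3.50%), with log2 fold changes of -1.25, -0.95 and -1.16. Of 34 tested regulators of alternative splicing outside the symbols above, 2 were called, both lower (5.88%, against 1.21%), and the median was 0.00.

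MBNL1, which promotes the adult splicing pattern in muscle, fell from 2399, 1997 and 2301 to 988.1, 663.4 and 649.3 normalized reads (log2 fold change -1.54, SE 0.24, adjusted p = 0.00767). It stayed past the threshold when any one library was left out. QKI, an RNA-binding regulator of splicing in glia and in mesenchymal cells, fell from 1652, 1674 and 1736 to 907.5, 677.3 and 752.9 normalized reads (log2 fold change -1.11, SE 0.22, adjusted p = 0.0265). The groups of both genes lay far apart, but the QKI call was lost (adjusted p 0.0815 to 0.107) when any one library other than siCGGBP1 replicate 3 was left out. CELF1 and RBFOX2 were called higher by DESeq2 (against 2.60% of all tested genes), with log2 fold changes of 0.70 and 0.62 and adjusted p of 0.110 and 0.114 in edgeR. None of the 6 tested SR protein kinases or of the 14 genes of the exon junction complex and nonsense-mediated decay was called, with medians of -0.02 and -0.10.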

How the data were processed

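Total and newly synthesized RNA were measured in 3 siControl and 3 siCGGBP1 libraries made with a 3′ end kit, plus 2 single siControl libraries. Deposited by the authors were expected counts per gene of reads, of converted and of covered T positions, which came from GRAND-SLAM after Bowtie2 2.3.0 had removed ribosomal reads and STAR 2.5.3a had mapped the rest to the human genome (GRCh38). No scaling was applied to them, and reads shared between genes leave fractions in 11644 genes. The new-to-total ratios are a fraction deposited by the authors for each gene and library, as GRAND-SLAM's maximum a posteriori value with quantiles. No step using molecular identifiers was named, so intervals cover counting error only. The labels name 4sU-labelled spike-in RNA, which was not used here.

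The members, classes and gene lists were chosen with earlier results of these data known. Read counts were rounded, genes that reached 100 reads in 3 or more of the 6 libraries were kept, and groups were compared with edgeR 4.0.16 (quasi-likelihood, TMM, two-sided, Benjamini-Hochberg over 10138 genes) in R 4.3.3. Standard errors were derived as the size of the log2 fold change over the root of F. Normalized reads are reads scaled to the mean TMM-adjusted library. Newly synthesized RNA was reads times ratio, with library sizes from total reads. Ratios were tested with limma 3.58.1 on arcsine square roots. DESeq2 1.42.0 was the main alternative, and the others are given in the closing section. The fits were also run on simulated data, with less spread for newly synthesized RNA than measured here. No result given here rests on those runs.

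Named members were, in each class, those called, the 2 highest and 2 lowest log2 fold changes among those whose 9 pairs of libraries all differ in one direction, the member with most reads, and those with the highest and lowest siControl ratio among members with at least 1000 reads on average, besides SYF2 and CGGBP1. Other members fall outside this rule, and only some of them are marked as named after their values were seen. Those without a mark, which the rule did not name either, include SRSF2, SNRPB2, U2AF2, PRPF8, RBM4, RBM6 and RBM14-RBM4. One result that this rule would name is not reported here. Members without a test that reach 10 reads in a library were counted only, except RBM20, which was singled out after its values were seen. Gene positions came from GENCODE 44 by gene identifier.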

Additional observations from a re-analysis of the deposited data

Results flagged for a closer look

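The siControl library with 200 µM 4sU, which entered no comparison, held 0.225 T-to-C conversions per 100 covered T over the tested members (Wilson 95% interval 0.222 to 0.228), against 0.0605 in the library without 4sU. It is a single library. The value lies within the range of the 3 siControl libraries with 75 µM, 0.203 to 0.262. In the same library SYF2 had a new-to-total ratio of 70.8%, against 12.9%, 3% and 13.9% with 75 µM, and 278 conversions against 11 without 4sU. Both values came to attention because they stand above the unlabelled control in data outside the comparisons, and no cause was tested.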

How the results depend on the processing

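The count of members called lower in total RNA, 1 as reported, was 9 with DESeq2, 0 with edgeR's filterByExpr, 7 without a filter, 2 with a replicate block, 2 without replicate 3 of both groups (an alternative chosen after seeing the data), 4 at an adjusted p under 0.1 and 0 when an absolute log2 fold change above 1 was required, and it was 0 to 0 when single libraries were left out. HNRNPR was among those called with DESeq2, DESeq2 size factors, no filter, the block and without replicate 3. The count called higher, 0 as reported, was 2 with DESeq2 and 1 without a filter, and newly synthesized RNA called lower was 1 with DESeq2. Same-numbered libraries had correlations of 0.109, 0.182 and 0.0885 in their deviations from the group means, and each library correlated best with its own number. Libraries of unlike number had correlations of -0.104 to -0.0244. What the numbers share is not given by the labels, and the main fits carry no term for it. With the replicate block, no member was called in newly synthesized RNA or in the ratio.

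Without replicate 3 of both groups, the class medians of the log2 fold change moved to -0.30 (snRNP core), -0.36 (LSM) and -0.27 (U2-associated). With single libraries left out they ran from -0.37 to -0.21 for hnRNP, from -0.33 to -0.21 for snRNP core and from -0.28 to -0.16 for U2-associated genes. They ran from -0.27 to 0.11 for LSM, from -0.28 to -0.08 for SR and from -0.18 to -0.004 for PRPF genes. The order of the classes was not kept. The catalytic core list had 3 genes called lower with DESeq2 and 0 to 1 with single libraries left out, and the list of splicing regulators had 2 called higher with DESeq2 and 1 to 2 called lower with single libraries left out. With at least 2 CGG repeats in place of 3, 54.5% of members with a promoter held a tract, against 32.8% of all genes and 59.6% of the tested genes that could be matched.

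Of 432 values of the 36 named members under alternatives, 390 kept their direction and side of the threshold, 13 passed it, 7 lost it and 22 changed sign. Without replicate 3 of both groups, HNRNPL (0.031), LSM4 (0.34), SF3B5 (0.015), SRSF11 (-0.19) and SYF2 (0.058) changed sign. With single libraries left out the log2 fold change ran from -0.31 to 0.10 for HNRNPL, -0.28 to 0.14 for LSM4, -0.46 to 0.072 for PRPF6, -0.13 to 0.085 for RBM25, -0.16 to 0.086 for RBM26, -0.15 to 0.15 for SF3B1, -0.14 to 0.14 for SF3B5, -0.14 to 0.22 for SRSF11 and -0.22 to 0.053 for SYF2. For all of these the cause was not tested.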
